A study of Homo sapiens with 2 samples.

Results

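Translation initiation and elongation factor genes were examined for C/EBPβ peaks near their transcript starts in HL-60 cells. A total of 31 gene symbols in the deposited list of peak and transcript pairs begin with EIF or EEF and a digit, out of 6143 symbols in the whole list. The EIF2AK kinases, which phosphorylate eIF2, were left out. Of the 31, 30 are protein-coding genes and 1, EEF1E1-BLOC1S5, is a noncoding read-through transcript that starts with EEF1E1 and carries the same peaks. These genes had 46 of the 7029 listed peaks, in 91 pairs with 63 transcripts on 17 chromosomes.

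The cells are HL-60, a human myeloid leukaemia line, given by the labels as myeloblasts that overexpress C/EBPβ, a leucine zipper transcription factor. Chromatin immunoprecipitation with an antibody to C/EBPβ (sc-150x) gave 1 sequenced library, and 1 input library was made from the same overexpressing cells without antibody. Both libraries carry the overexpression, neither has a replicate, and cells without it were not analysed here. The labels name neither the overexpression construct nor whether the line is a single clone. No test between samples was possible, so everything below is a count, a distance or a width, read beside the same measure over all listed genes. The list holds no expression, read depth or peak height, so the precision of single peaks is unknown and neither the identity of the cells nor the level of any factor was checked.

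Translation starts when eIF2 brings the initiator tRNA to the small ribosomal subunit, on which eIF1, eIF1A, eIF3 and eIF5 also sit. The eIF4 group recognises the mRNA cap and unwinds the leader, eIF5B joins the subunits, and the elongation factors eEF1 and eEF2 then deliver tRNAs and move the ribosome along. Control falls mainly on eIF2, which is recycled by its exchange factor eIF2B, and on the cap-binding protein eIF4E, which is held back by eIF4E-binding proteins. C/EBPβ acts as a dimer and binds palindromes of the type TTGCGCAA.

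The DNA around the starts is shown first for some members with at least 2 listed peaks. Shown are those that hold TTGCG, the first 5 letters of TTGCGCAA, or the reverse complement CGCAA in the 250 bases before the start. TTGCG runs past the middle of the palindrome, so it is not 1 arm of it. It was chosen after the data had been seen. The stretches are the RefSeq sequence of GRCh38, written along the gene and ending at the base before the start, with these 5 letters in capitals. The peaks are in hg19 and annotated starts can differ between releases, so the peaks were not placed on these stretches.
EIF4H, chr7:74174106-74174355, plus strand: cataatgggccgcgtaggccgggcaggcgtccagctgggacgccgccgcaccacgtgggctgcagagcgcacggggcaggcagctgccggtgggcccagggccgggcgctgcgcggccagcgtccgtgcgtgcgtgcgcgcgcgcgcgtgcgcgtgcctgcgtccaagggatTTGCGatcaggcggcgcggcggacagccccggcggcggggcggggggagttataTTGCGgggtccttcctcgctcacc
EIF4A2, chr3:186783327-186783576, plus strand: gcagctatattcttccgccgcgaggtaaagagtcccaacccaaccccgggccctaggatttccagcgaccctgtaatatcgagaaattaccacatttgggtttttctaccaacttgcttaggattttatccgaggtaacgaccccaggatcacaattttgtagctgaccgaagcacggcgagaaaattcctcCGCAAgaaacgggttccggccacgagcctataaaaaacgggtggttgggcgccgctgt
EIF5B, chr2:99337139-99337388, plus strand: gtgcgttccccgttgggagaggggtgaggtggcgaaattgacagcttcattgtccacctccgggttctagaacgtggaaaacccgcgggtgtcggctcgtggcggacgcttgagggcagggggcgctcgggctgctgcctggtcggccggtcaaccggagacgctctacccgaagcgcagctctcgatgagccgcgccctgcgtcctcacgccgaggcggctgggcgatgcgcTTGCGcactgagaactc
EIF5, chr14:103333987-103334236, plus strand: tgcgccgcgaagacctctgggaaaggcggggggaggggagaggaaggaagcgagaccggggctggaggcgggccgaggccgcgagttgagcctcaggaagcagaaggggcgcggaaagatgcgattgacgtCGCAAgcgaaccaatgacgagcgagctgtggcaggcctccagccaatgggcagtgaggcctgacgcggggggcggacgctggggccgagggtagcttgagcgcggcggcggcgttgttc
EEF2, chr19:3985464-3985713, minus strand: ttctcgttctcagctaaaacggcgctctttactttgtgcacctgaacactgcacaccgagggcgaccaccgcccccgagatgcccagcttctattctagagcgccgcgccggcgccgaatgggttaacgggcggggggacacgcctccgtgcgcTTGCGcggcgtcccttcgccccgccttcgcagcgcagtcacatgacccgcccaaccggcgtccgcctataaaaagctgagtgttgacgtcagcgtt
EIF4H holds the 5 letters at 2 places and the other four genes at 1 place each. Their G and C content runs from 51.6% at EIF4A2 to 76.4% at EIF4H, beside a median of 62.4% over 15489 promoters of protein-coding genes.

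By the deposited symbols, 30 of the 65 protein-coding genes that carry such a symbol today had a listed peak (46.2%, exact 95% binomial interval 33.7 to 59.0, counting error over genes only). The 35 others were without one under that symbol. The share over all protein-coding genes, counted by current symbol, was 26.5%, 5133 of 19392. A further 4 of the 65 genes, 3 for methyltransferases of eEF1A and 1 for a read-through with such a gene, were listed under older names. This brings the share by current symbol to 34 of 65 (52.3%) and leaves 31 genes with no listed peak under any name. No test of this difference was made, because the group was chosen with results of these data known.

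Among the complexes, the share ran from 1 of 5 genes for eIF2B to 8 of 12 for eIF4. The elongation factor group had 4 of 7 listed, or 3 of 6 without EEF1E1, a component of the multi-synthetase complex. For the others, eIF2 had 2 of 4, eIF3 had 6 of 14 and eIF5 had 2 of 5. The intervals of all 6 complexes overlap widely; that of eIF2B runs from 0.505% to 71.6% and that of eIF4 from 34.9% to 90.1%, so no order among them is claimed.

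**Figure D1:**
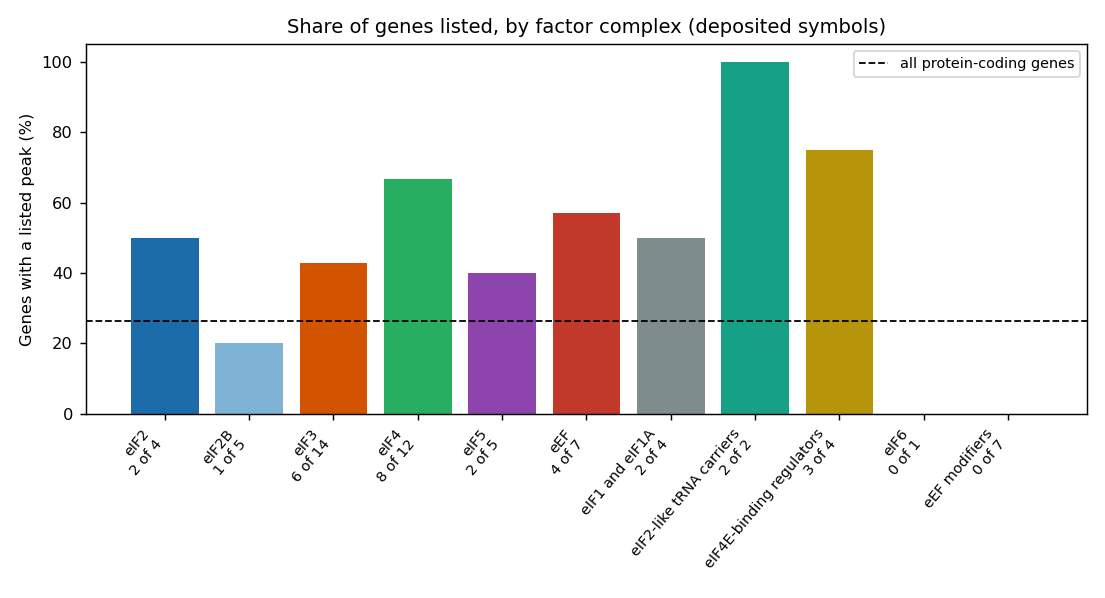
Share of the genes of each factor complex or related group that had at least 1 listed C/EBPβ peak under the deposited symbol, in percent, with the counts under each name. The dashed line is the 26.5% of all protein-coding genes, counted by current symbol; eIF2B, eIF6 and the enzymes that modify elongation factors lie below it, and the other groups, each of 2 to 14 genes, lie above. The bar of the modifying enzymes is at 0 of 7 by naming, since 4 of these genes were listed under older names.

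The eIF2 complex has subunits alpha, beta and gamma, and the genes of beta and gamma were listed. At EIF2S2, the beta subunit, the 2 peaks spanned 32698948 to 32699202 and 32699836 to 32700141 of chromosome 20. Their middles lay 1010 and 97 bases below the start in genome direction, and the second peak, 305 bases wide, covered the start. EIF2S3, the gamma subunit that binds GTP and the initiator tRNA, had 2 neighbouring peaks on chromosome X, spanning 24072308 to 24072506 and 24072581 to 24073017, with 75 bases between them. Both lay upstream, 657 and 265 bases from the start. EIF2S1, the alpha subunit that the stress kinases phosphorylate, had no listed peak, nor did EIF2S3B, a retrotransposed copy of the gamma gene. EIF2S3 and its copy hold the same match to the C/EBP core TTGCNNAA, on the opposite strand, at base 5 of the transcript, shown here in capitals from RefSeq GRCh38.
EIF2S3, chrX:24054952-24054975, plus strand: cttcctctTTTGGCAAcatggcgg
EIF2S3B, chr12:10505886-10505909, plus strand: cttcctctTTTGGCAAcatggcgg
The 24 letters are identical in the listed gene and in the copy without a listed peak. Both EIF2S3 peaks ended upstream of the start, so neither reached this site if both builds share that start. No label says how reads matching both genes were placed.

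EIF2A and EIF2D encode proteins outside the eIF2 complex that can carry tRNA to the ribosome on some mRNAs, and both were listed with 1 peak. The EIF2D peak on chromosome 1, at 206785791 to 206785948, had its middle 35 bases downstream of the start. The EIF2A peak on chromosome 3, at 150264244 to 150264407, lay 248 bases upstream. It was also paired with SERP1, a gene for a membrane protein of the endoplasmic reticulum stress response, whose start was nearer, at 103 bases. If a peak counted for the nearest start alone, EIF2A and EIF2B4 would drop out, which leaves 28 of 65 factor genes (43.1%), beside 23.4% of all protein-coding genes.

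The exchange factor eIF2B has 5 subunit genes, and 1 of them, EIF2B4 for the delta subunit, was listed. Its peak on chromosome 2, at 27593279 to 27593751, was 472 bases wide, the third widest among the members. The peak covered the nearer of 2 starts, with its middle 191 bases upstream of it. It was also paired with the sorting nexin gene SNX17, at 153 bases. When peaks counted for the nearest start alone, 0 of the 5 eIF2B genes were listed. EIF2B1, EIF2B2, EIF2B3 and EIF2B5 had no listed peak.

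For eIF3, the largest initiation factor and the scaffold on the small subunit, 6 of 14 genes were listed, each with a single peak. Of these, 5 peaks had their middle within 100 bases of the start. EIF3L had its peak 20 bases from the start on chromosome 22, at 38245216 to 38245580, which also fell 1617 bases from the microRNA gene MIR659. EIF3E was at 26 bases on chromosome 8 (109260912 to 109261058) and EIF3G, an RNA-binding subunit, at 35 bases on chromosome 19 (10230484 to 10230784). All 3 of these peaks covered the start.

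EIF3I, which sits with EIF3B and EIF3G in a mobile module of the complex, had its peak on chromosome 1, at 32687935 to 32688162. The peak covered the start, with its middle 78 bases downstream. The same peak was paired with TMEM234, a gene on the other strand that starts 44 bases away. EIF3D, a subunit that can itself bind the cap of some mRNAs, had its peak 92 bases downstream on chromosome 22, at 36925103 to 36925267. The exception was the core subunit gene EIF3B, whose only peak, at 2396940 to 2397121 on chromosome 7, lay 2557 bases downstream, the farthest of any member. The core subunits EIF3A and EIF3C, together with EIF3F, EIF3H, EIF3J, EIF3K and EIF3M, had no listed peak. EIF3CL, the near-identical copy of EIF3C, was also without one; reads from such copies cannot be placed with certainty, and no label says how the authors treated them.

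The eIF4 group had the most listed genes, 8 of 12, and all 3 genes of the eIF4A helicase family were among them. At EIF4A2 on chromosome 3, 3 peaks spanned 186500881 to 186501505, 186501599 to 186501816 and 186502677 to 186502823. The first, 624 bases wide and the second widest among the members, covered the start, and the others lay 347 and 1390 bases downstream. EIF4A2 hosts small RNAs in its introns, and these peaks were also paired with SNORD2, SNORA81, SNORA4, SNORA63 and MIR1248. EIF4A1, its close relative, had 1 peak on chromosome 17, 952 bases downstream at 7476788 to 7477163, paired as well with SNORA48. EIF4A3, the helicase of the exon junction complex, had 2 on that chromosome, spanning 78120291 to 78120515 and 78120984 to 78121272. The second ended 2 bases before the start on the upstream side, and the first lay 579 bases inside the gene.

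The proteins eIF4B and eIF4H help the helicase. At EIF4H on chromosome 7, 3 peaks spanned 73587412 to 73587690, 73588556 to 73588844 and 73588896 to 73589042. The middle one was 288 bases wide and lay 5 bases from the start, and 52 bases separated it from the third, the smallest gap between peaks of any member. EIF4B had 1 peak, 283 bases upstream at 53399673 to 53399843 on chromosome 12. EIF4H is thus among the 3 members with 3 or more peaks, and EIF4B among the 18 with 1.

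Of the cap-binding proteins, EIF4E and EIF4E2 were listed and EIF4E1B and EIF4E3 were not. The peak nearest a start among all members was at EIF4E2, a relative of eIF4E that represses translation, 2 bases from the start at 233415206 to 233415383 on chromosome 2. TIGD1, on the other strand, starts 4 bases away, so the peak was paired with both, and with MIR5001 at 11 bases. EIF4E had 1 peak of 152 bases on chromosome 4, at 99849910 to 99850062, which lay 257 bases downstream of one of its starts and 1800 bases from the other. Of the eIF4G scaffold genes, EIF4G1 and EIF4G3, which bind eIF4E, had no listed peak. EIF4G2, whose product lacks the part that binds eIF4E, had 1 on chromosome 11, at 10830311 to 10830457, 198 bases inside the nearer of 2 starts. The EIF4G2 peak was also paired with the noncoding gene LOC101928053, at 459 bases.

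Regulators that bind eIF4E were listed at 3 of 4 genes. EIF4EBP2 on chromosome 10 had 2 peaks, spanning 72164157 to 72164329 and 72165343 to 72165593, both inside the gene at 383 and 1608 bases. EIF4EBP3 had 1 on chromosome 5, 341 bases downstream at 139927509 to 139927674. EIF4ENIF1, which carries eIF4E into the nucleus, had 1 on chromosome 22, at 31885809 to 31886148, which covered one of its 2 starts. EIF4EBP1, the best-studied of these repressors, had no listed peak.

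**Figure D2:**
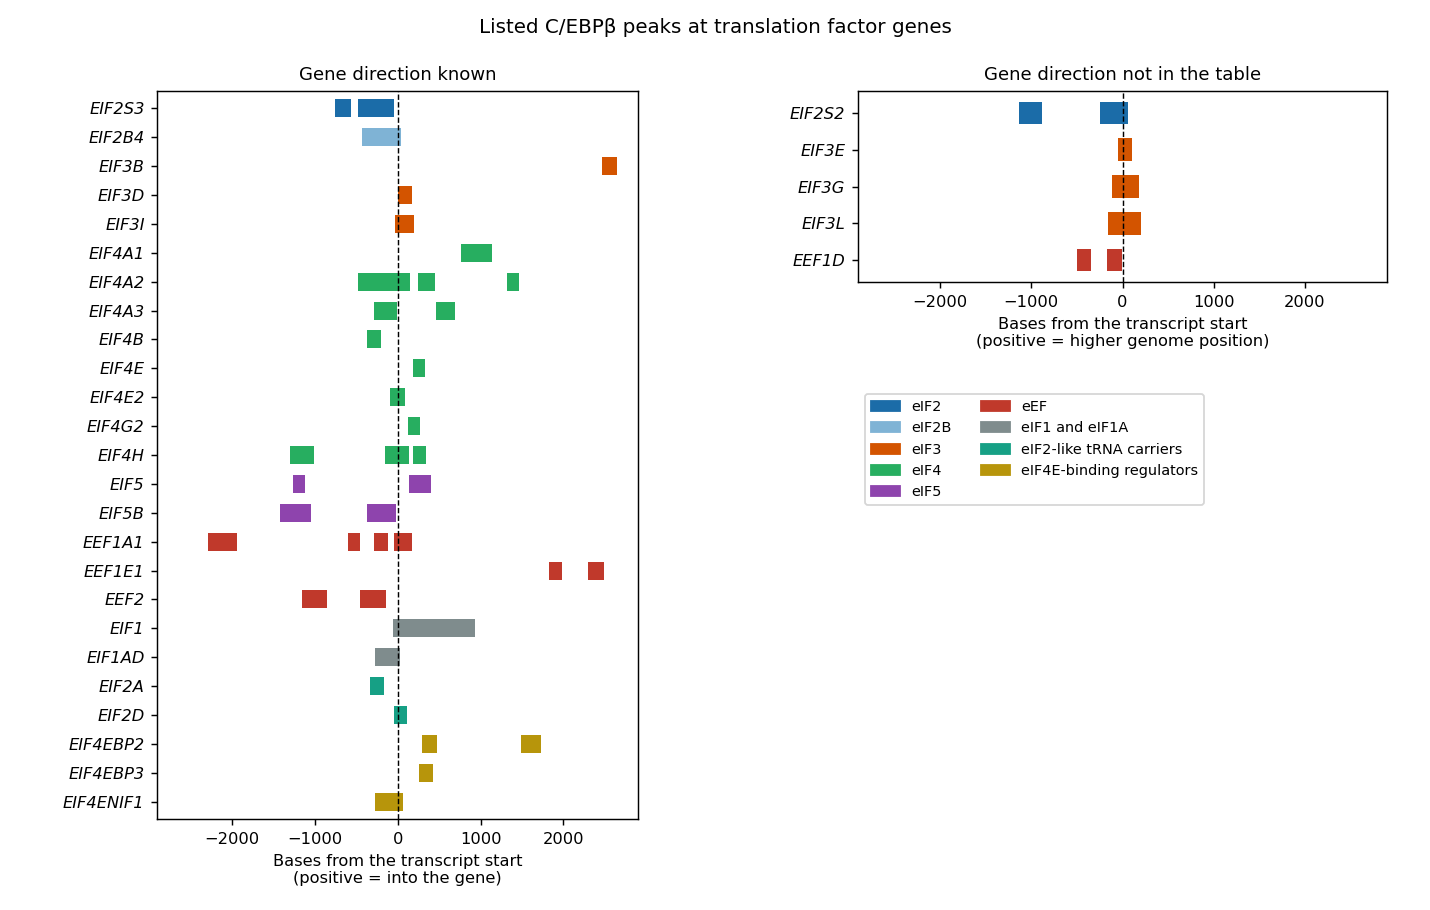
Listed peaks drawn to scale as bars at their distance in bases from the transcript start (dashed line) of 30 translation factor genes, coloured by complex; where a gene has several starts, the start nearest to a peak is used for all its bars. The left panel runs along the gene for 25 genes and the right panel in genome direction for 5 genes; most bars lie within 500 bases of the start, and EIF3B and EEF1E1 are the genes whose nearest peak lies at more than 1000 bases.

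Of the remaining initiation factors, EIF5 and EIF5B were listed with 2 peaks each. EIF5, which makes eIF2 hydrolyse its GTP, has 2 starts in the list 859 bases apart on chromosome 14. Its peak at 103799937 to 103800083 lay 328 bases upstream of the first start, and that at 103801339 to 103801603 lay 274 bases downstream of the second. The latter peak was also paired with SNORA28, at 2714 bases. EIF5B, the GTPase that joins the ribosomal subunits, had 2 on chromosome 2, spanning 99952415 to 99952789 and 99953462 to 99953810, which lay 1231 and 197 bases upstream. Both were also paired with the thioredoxin domain gene TXNDC9, which starts 973 bases away on the other strand and 258 bases from the first peak. EIF5A, the hypusine-bearing factor, and its relatives EIF5A2 and EIF5AL1 had no listed peak.

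The widest peak of all members was at EIF1, which guards the choice of the start codon. It spanned 989 bases on chromosome 17, at 39845066 to 39846055, covered the start and had its middle 434 bases inside the gene. Of all 7029 peaks, 99.5% were narrower. EIF1AD, which encodes a protein with an eIF1A-like domain, had 1 peak on chromosome 11, at 65769611 to 65769912, which covered the start. BANF1, on the other strand, starts 88 bases away and shared it. EIF1B, EIF1AX and EIF6 had no listed peak.

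Elongation factor genes showed the largest number of peaks at a single member. EEF1A1, which encodes the protein that brings aminoacyl-tRNA to the ribosome, had 4 peaks on chromosome 6, spanning 74230581 to 74230801, 74230872 to 74231044, 74231203 to 74231350 and 74232693 to 74233047. The first covered the start with its middle 64 bases downstream, and the others lay 203, 521 and 2115 bases upstream. The first 3 were separated by 71 and 159 bases. EEF1A1 has 50 named pseudogenes in the RefSeq table, more than any other member, so reads over its transcribed part can match several places; the effect of this on the peaks was not tested. The muscle and neuron form, EEF1A2, had no listed peak. The EEF1A1 promoter window holds the same core, again on the opposite strand, at base 4 of the transcript.
EEF1A1, chr6:73521014-73521037, minus strand: acgttcttTTTCGCAAcgggtttg
The capitals mark the core.

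EEF2, the translocase, had 2 peaks on chromosome 19, spanning 3985600 to 3985921 and 3986316 to 3986619, 299 and 1006 bases upstream. Of the exchange factor subunits of eEF1, EEF1D had 2 narrow peaks on chromosome 8, spanning 144679350 to 144679496 and 144679674 to 144679835. EEF1D has 2 starts in the list, 287 bases apart. The first peak lay 135 bases from one start and the second lay 91 bases from the other. Both peaks were also paired with TIGD5. EEF1B2 and EEF1G had none listed. EEF1E1, a component of the multi-synthetase complex despite its name, had 2 peaks on chromosome 6, spanning 8100338 to 8100528 and 8100844 to 8100999, which lay 2395 and 1907 bases inside the gene.

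Enzymes that act on elongation factors had no peak under a deposited EEF symbol, but 4 genes were found through their accessions. EEF1AKMT1, deposited as N6AMT2, had 2 peaks on chromosome 13, the nearer at 21347877 to 21348385 and 74 bases from the start. EEF1AKMT2, deposited as METTL10, had 2 on chromosome 10, the nearer at 126480236 to 126480558 and 113 bases from the start. EEF1AKMT4 and its read-through with ECE2, both deposited as ECE2, shared 1 peak on chromosome 3 at 183967246 to 183967511. EEF2K, the kinase that switches off eEF2, EEF2KMT and EEF1AKMT3 had no listed peak.

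Peaks of the members lay close to the start, as did those of the related gene sets given below. The nearest peak of a member had a median distance of 179 bases, beside 265 bases over the 5133 listed genes, and 27 of the 30 members had a peak middle within 500 bases. The start lay inside a listed peak at 14 of 30 members (46.7%), beside 31.2% of all listed genes. A peak middle within 100 bases was found at 11 of 30 (36.7%), beside 25.3%. Of the 25 members with a gene direction in the RefSeq promoter table, 13 (52.0%) had the nearest peak downstream and 12 upstream, which is near the 49.7% downstream over 4243 listed genes. With peaks limited to 1000 bases from a start, 28 of 65 factor genes were listed (43.1%), beside 20.9% of all protein-coding genes, and the members lost were EIF3B and EEF1E1.

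Several peaks at 1 gene were found for 12 of 30 members (40.0%), beside 30.2% of listed genes. Of these, 9 had 2 peaks, 2 had 3 and 1 had 4, so 10.0% had at least 3, beside 8.61% of listed genes. Peaks of the same member were separated by 52 to 1343 bases, with a median of 432 bases over 16 gaps, and in all 16 the authors' peak numbers follow on, so no other numbered peak lay between. A peak shared with another protein-coding gene was found at 7 of 30 members (23.3%), close to the 22.4% of all listed genes.

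Member peaks were of ordinary width. Their median was 222 bases, beside 229 bases over all peaks, and 21 of the 46 were above that value. The narrowest width in the list, 146 bases, was found at 6 member peaks (13.0%) and at 8.02% of all peaks. These 6 were at EIF3E, EIF4A2, EIF4G2, EIF4H, EIF5 and EEF1D. Restricting the list to peaks at or above the median width left 17 of 65 factor genes listed (26.2%), beside 15.5% of all protein-coding genes.

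**Figure D3:**
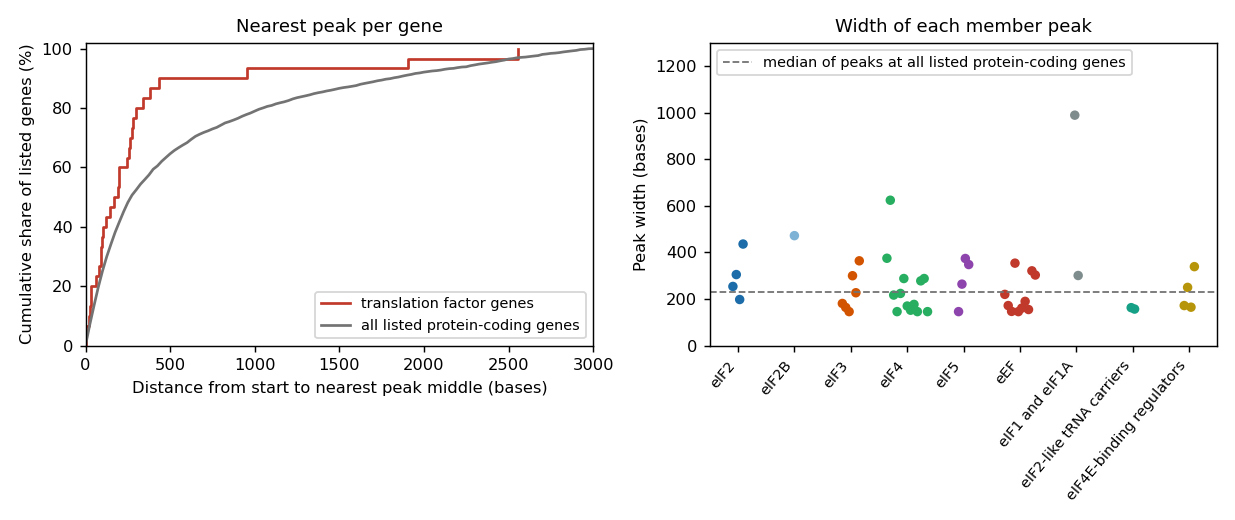
Left, cumulative share of listed genes (percent) by the distance in bases from the start to the nearest peak middle, for 30 translation factor genes (red) and all 5133 listed protein-coding genes (grey); the red line reaches 27 of 30 genes by 500 bases. Right, width in bases of each of the 46 member peaks by complex, with the median of 229 bases of peaks at all listed protein-coding genes dashed; EIF1 stands highest at 989 bases.

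Short C/EBP-type sequences were counted on both strands in 300-base promoter windows of RefSeq GRCh38, 250 bases before and 50 after the start. Windows were found for 25 of the 30 listed members; EEF1D, EIF2S2, EIF3E, EIF3G and EIF3L are the others. The full palindrome TTGCGCAA was in none of the 25, beside 0.565% of 4250 listed genes and 0.0356% of 11239 genes without a peak. The element TGATGNAA, bound by dimers of C/EBP and ATF proteins, was also in none, beside 2.28% of listed genes and 2.54% of all 15489 promoters. The core TTGCNNAA was in 3 of 25 (12.0%), at EEF1A1, EIF2S3 and EIF3B, in 3 of 24 translation factor genes without a listed peak (12.5%), and in 8.37% of all promoters. At EIF3B the match was at base -164 from the start, whereas its only peak lay 2557 bases downstream. At EIF2S3 the match was at base 5 of the transcript, whereas both peaks ended upstream of the start. At EEF1A1 the match was at base 4, and the nearest peak covered the start. Annotated starts can differ between the builds.

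The shorter TTGCG, which is contained in TTGCGCAA and overlaps TTGCNNAA, was in 14 of the 25 listed members (56.0%), in 8 of the 24 members without a peak (33.3%), in 32.6% of listed genes and in 24.5% of all promoters. TTGCG, TTNCNNAA and CCGGAAG were chosen after the data had been seen. The relaxed core TTNCNNAA, which contains every TTGCNNAA, was in 7 of 25 (28.0%), in 6 of the 24 members without a peak, in 30.2% of listed genes and in 30.4% of all promoters. CCGGAAG, bound by ETS factors, was in 6 of 25 (24.0%), in 7 of the 24 members without a peak (29.2%), in 19.4% of listed genes and in 14.4% of all promoters. These counts describe letters in a window and do not place a factor there; no match says only that the letters are absent from the window.

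Other genes of the pathway were listed at 26 of 44 members (59.1%), beside 26.5% of all protein-coding genes. Their groups hold 1 to 9 genes each and are too small to be ranked. The eIF2 phosphatase, which undoes the stress-induced block on eIF2, had 4 of 5 genes listed. PPP1R15A, its stress-induced targeting subunit, had 2 peaks with the nearest 42 bases from the start. PPP1R15B, the constant targeting subunit, had 2 with the nearest at 203 bases, and the catalytic subunit gene PPP1CC had 1 at 3 bases with a width of 627 bases. PPP1CA had its peak at 1996 bases and PPP1CB had none listed.

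Enzymes that build the hypusine of eIF5A and the diphthamide of eEF2 were listed at 5 of 8 genes. Both hypusine enzymes were among them, DHPS at 312 and DOHH at 83 bases, while their substrate gene EIF5A was not listed. Of the diphthamide enzymes, DPH3, DPH5 and DPH6 were listed and DPH1, DPH2 and DPH7 were not. Genes that control the cap complex were listed at 5 of 9, the S6 kinase gene RPS6KB2 at 10 bases, RPTOR at 106, the helicase gene DDX3X with 3 peaks and the nearest at 232, PDCD4, an inhibitor of eIF4A, at 588, and the eIF4E kinase gene MKNK2 at 763. MTOR, RPS6KB1, MKNK1 and LARP1 had none listed.

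Termination and reinitiation genes were also found. The release factor genes ETF1 and GSPT1 were listed, at 95 and 178 bases, and GSPT2 and the recycling ATPase gene ABCE1 were not. DENR and MCTS1, whose products work as a pair in reinitiation, had a peak each, at 124 and 51 bases. Of the poly(A)-binding group, PAIP1 was at 104 bases and PABPC1 at 1989, and PABPC4, PAIP2 and PAIP2B were not listed. EEFSEC, the selenocysteine elongation factor gene, was at 107 bases, and CDC123, needed to assemble eIF2, was not listed. Mitochondrial factors were listed at 5 of 9, TSFM at 32, GFM1 at 35, MTIF2 at 50, MTIF3 at 197 and MRRF at 423 bases, with none at TUFM, GFM2, MTRF1 or MTRF1L.

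Beside other genes of protein synthesis, the share of factor genes listed by current symbol, 52.3%, lay between 62.9% of aminoacyl-tRNA synthetase genes (22 of 35) and 47.6% of cytosolic ribosomal protein genes (40 of 84). Genes with 2 or more peaks made up 41.2% of the 34 listed factor genes, 34.6% of the listed partner genes, 22.7% of the listed synthetase genes and 20.0% of the listed ribosomal protein genes, beside 30.2% of all listed genes. A peak within 100 bases of the start was found at 41.2% of listed factor genes, 31.8% of listed synthetase genes and 40.0% of listed ribosomal protein genes, beside 25.3% of all listed genes. The median distance of the nearest peak was 135 bases for the 34 factor genes and 115.5 bases for the partner genes. It was 138.5 bases for the synthetase genes and 139 bases for the ribosomal protein genes, beside 265 bases for all listed genes. These are counts in 1 library with no test of the differences, and nothing is claimed as particular to the factor genes.

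**Figure D4:**
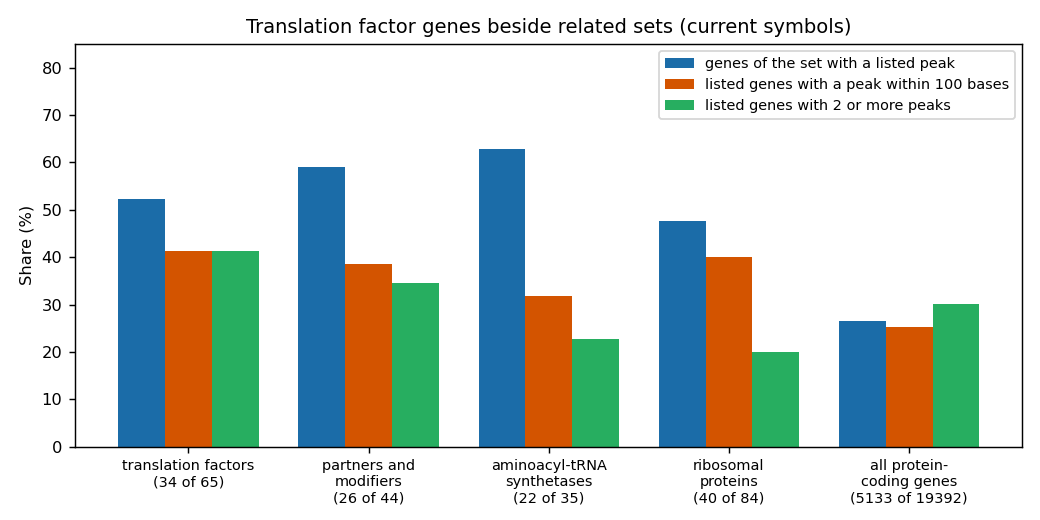
Share in percent of genes with a listed peak (blue), and among listed genes the share with a peak middle within 100 bases (orange) and with 2 or more peaks (green), for translation factors, their partners, aminoacyl-tRNA synthetases, ribosomal proteins and all protein-coding genes by current symbol. The 4 sets of protein synthesis genes run from 47.6% to 62.9% listed, all above the 26.5% of all genes.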

How the data were processed

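The submitters' processing notes name MACS2 (version 2.1.1), BWA (version 0.7.10), SAMtools and build hg19, without saying what each did. The authors deposited 17637 pairs of peaks and RefSeq transcripts for 1 ChIP library; no file of the input library and no peak threshold were used here. The deposited distance runs from the start to the middle of the peak along the genome, up to 2998 bases. The deposited score repeats that distance and was not used.

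RefSeq GRCh38 gave gene names (12331 of 12532 transcripts through accessions, 129 through symbols, 58 through former symbols, 14 unmatched) and, through its promoter table, gene direction, taken to be the same in hg19. A gene was listed with at least 1 paired peak, and a peak was measured from that gene's nearest start. A gene without a peak is one with none in this list, which reaches 2998 bases from a start. The background was 19392 protein-coding genes of the autosomes and X. Members, lists and motifs were chosen with earlier results of these data known. All members, genes sharing their peaks and 44 partner genes were named. Alternatives were the nearest start alone, a window of 1000 bases, wider peaks, current symbols, subunits alone, the nearest peak per gene and other motif letters. Python 3.11.15, pandas 2.3.3 and SciPy 1.17.1 were used; functions were tested on simulated data.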

Additional observations from a re-analysis of the deposited data

How the results depend on the processing

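Of 55 values recomputed under an alternative, 46 stayed within the 95% interval of the value as reported and 9 did not. The interval was exact binomial for shares and from order statistics for medians. Some values could not move. No gene of eIF2, eIF2B, eIF3, eIF4, eIF5 or eEF was listed under an older name. Limiting to subunits changed no gene of these complexes except in eEF. The count of values that stayed is therefore no measure of robustness. With peaks at or above the median width only, the share listed was 26.2% for all factor genes, 14.3% for eIF3, 33.3% for eIF4 and 29.5% for the partner genes, and the median width of member peaks was 321 bases; fewer peaks enter by construction, and the background share fell to 15.5%. With the nearest start only, eIF2B had a share of 0% (0 of 5). Among motifs, TTGCGCAA and TGATGNAA were each in 0% of member promoters and TTGCG, added after the data were seen, in 56.0%, against 12.0% for TTGCNNAA. No paired analysis was possible because there is 1 library per group. Complexes of 4 to 14 genes leave wide intervals, and without replicates or read depth no peak's reproducibility can be given.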
